A study of Mus musculus with 12 samples.

Results

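The translation initiation and elongation factors were followed as transcripts in exosomes, the small vesicles that cells release into their medium. All probes whose gene symbol in the platform annotation began with Eif or Eef and a digit were taken, and the Eif2ak kinases were left out. This gave 54 genes with 91 probes, of 16593 named genes and 25696 probes on the array. Of these, 43 genes (67 probes) with Eif symbols were counted as initiation factors and 11 genes (24 probes) with Eef symbols as elongation factors. The split follows the symbol and not the function, so genes of regulators such as Eif4ebp2 and Eef2k are counted in it.

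The exosomes came from HL-1, an immortalized line of atrial cardiomyocytes from the mouse, so every group was the same line. The groups were cells given 10 ng/mL TGF-β2 (transforming growth factor β2), cells given 100 ng/mL PDGF-BB (the B homodimer of platelet-derived growth factor), and control cells with neither. Cells of all groups stayed in serum-free medium for 23 h before the medium was collected, and the serum used in culture had been ultracentrifuged first. Each group had 4 samples, every one from its own culture flask, hybridized to Illumina MouseRef-8 arrays. The spread between samples is therefore that between flasks of a single cell line.

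In translation initiation, eIF2 brings the initiator tRNA to the small ribosomal subunit, eIF3 and eIF1A help to assemble that subunit with its partners, and eIF4E, eIF4G and the helicase eIF4A bring the mRNA through its cap. The 4E-binding proteins block eIF4E until they are phosphorylated through mTOR, and eIF5 and eIF5B act when the start codon is found and the large subunit joins. In elongation, eEF1A delivers aminoacyl-tRNA to the ribosome, the eEF1B complex (subunits encoded by Eef1b2, Eef1d and Eef1g) reloads eEF1A with GTP, and eEF2 moves the ribosome along by one codon. Cardiac and skeletal muscle use eEF1A2, encoded by Eef1a2, as their adult form of eEF1A, and growth factors set the rate of protein synthesis in cardiomyocytes largely at initiation.

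A probe was called detected when its detection p-value, the share of negative-control beads at least as bright, was under 0.01. A gene was detected when at least 1 of its probes was. Detection differed widely between arrays. Each array had between 294 and 1506 of all 25696 probes detected, and about 257 would pass by chance. PDGF-BB sample 1 correlated least with the other arrays (median r = 0.232 over tested probes), followed by control sample 1 (0.525), while the other 10 arrays had medians of 0.654 to 0.815. The study left out 1 PDGF-BB sample as an outlier, but the labels do not say which, so all 12 arrays were kept. Of 13 cardiomyocyte marker genes, 6 were detected on at least 1 array, led by Myl4 and Atp2a2 on 11 arrays each, while Actc1 and Nppa were detected on 0. Of the markers of other cell types, 2 of 7 fibroblast genes, 1 of 5 leucocyte genes and 0 of 6 endothelial genes were detected on at least 1 array, on 2 arrays at most.

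Translation factor transcripts were detected more often than the average named gene, but most of the family was not detected. Counted by the most often detected probe of a gene, at least 1 array detected 21 of 54 factor genes (38.9%), against 2877 of 16593 named genes (17.3%). At least 3 arrays detected 15 factor genes (27.8%), against 962 named genes (5.80%), and at least 6 arrays detected 6 factor genes (11.1%), against 339 (2.04%). The only factor gene on all 12 arrays was Eef1g, where 24 named genes (0.145%) were. Elongation factors were detected in larger shares than initiation factors, with 6 of 11 (54.5%) against 15 of 43 (34.9%) on at least 1 array. On at least 3 arrays the shares were 4 of 11 (36.4%) against 11 of 43 (25.6%), and on at least 6 they were 3 of 11 (27.3%) against 3 of 43 (6.98%). A gene with more probes has more chances of detection, and the 11 elongation genes had 24 probes where the 43 initiation genes had 67. The 54 factor genes had 91 probes, and the 16593 named genes had 23977. By probe, 27 of 91 factor probes were detected on at least 1 array, against 3336 of all 25696 probes. The shares of initiation and elongation genes are descriptions of the 2 groups of genes, since genes on the same arrays are not replicates. Of the 54 genes, 33 were detected on 0 arrays. About 0.91 factor probes would pass by chance on each array. A gene detected on 1 array alone may therefore have passed by chance, which holds for the factors and for all named genes.

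**Figure D1:**
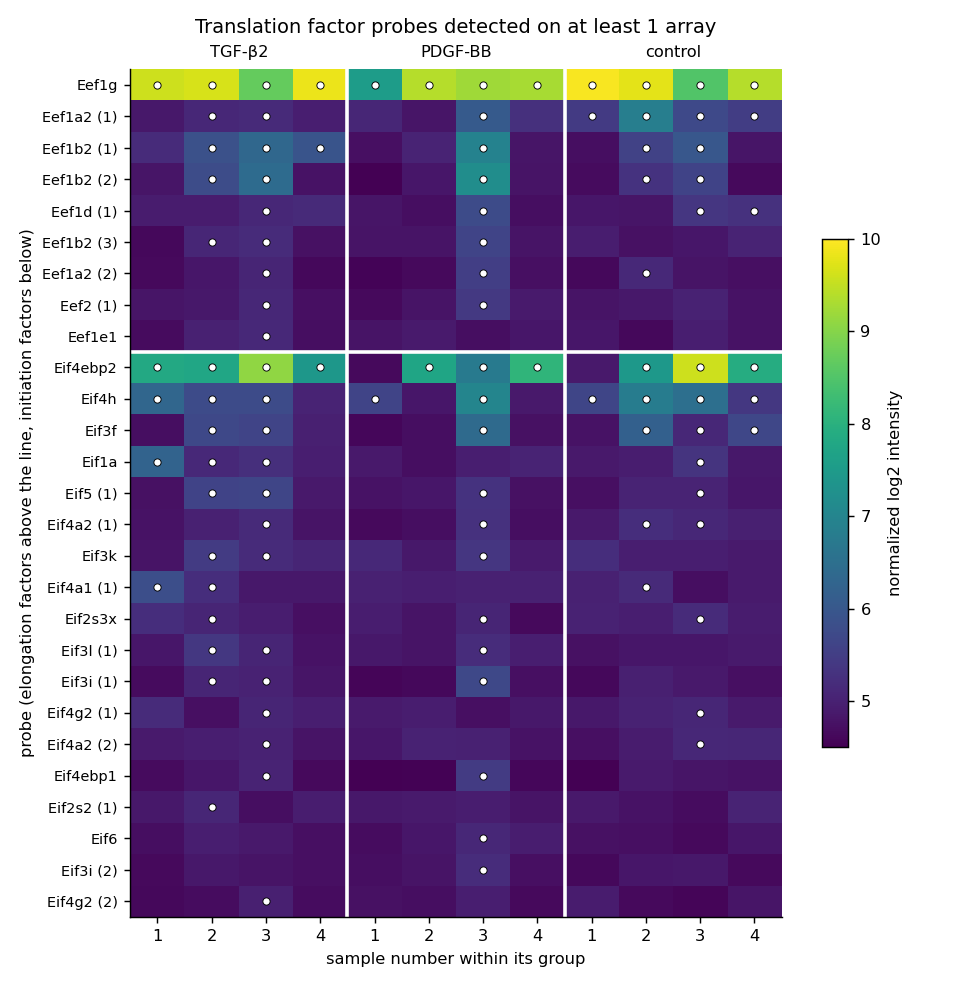
Normalized log2 intensity (colour) of the 27 factor probes detected on at least 1 array, by sample number in the TGF-β2, PDGF-BB and control groups from left to right. White points mark detection, and a number in brackets after a gene ranks its probes by mean level. Eef1g is marked on all 12 arrays and Eif4ebp2 on 10, and most other points fall on TGF-β2 samples 2 and 3, PDGF-BB sample 3 and control samples 2 and 3.

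Among elongation factors, detection centred on the eEF1 complex. All 3 genes of eEF1B were detected, Eef1g on 12 arrays, Eef1b2 on 6 and Eef1d on 4. Of the 2 eEF1A genes, Eef1a2 was detected on 7 arrays, and Eef1a1, the form used by most tissues, on 0. The 7 arrays are those of the best of 3 Eef1a2 probes, and the others were detected on 3 and 0. The single Eef1a1 probe reached its lowest detection p-value, 0.0301, on control sample 3. Eef1e1, which encodes a protein bound to the tRNA synthetase complex, was detected on 1 array and Eef2 on 2. The kinase gene Eef2k, whose product inhibits eEF2, and the 3 eEF1A methyltransferase genes Eef1akmt1, Eef1akmt2 and Eef1aknmt were detected on 0.

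Among initiation factors, detection was spread thinly over most classes. Of the mRNA-recruiting helicase group, Eif4h (an activator of eIF4A) was detected on 9 arrays, Eif4a2 on 4 and Eif4a1 on 3, while Eif4a3, whose product sits in the exon junction complex, and Eif4b were detected on 0. Of the 4E-binding proteins, Eif4ebp2 was detected on 10 arrays and Eif4ebp1 on 2, while Eif4ebp3 and Eif4enif1, which encodes the transporter of eIF4E, were detected on 0. Their target Eif4e and its relatives Eif4e1b, Eif4e2 and Eif4e3 were also detected on 0 arrays. Eif4g2, which encodes an eIF4G relative that does not bind eIF4E, was detected on 2. Eif4g1 and Eif4g3 were not among the annotated members and were not analysed here.

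The eIF3 complex gave 4 of its 12 annotated genes. Eif3f was detected on 6 arrays, and Eif3i, Eif3k and Eif3l on 3 each. The other 8, Eif3a, Eif3b, Eif3c, Eif3d, Eif3e, Eif3h, Eif3j1 and Eif3m, were detected on 0 arrays. Of the eIF2 genes, Eif2s3x (the γ subunit) was detected on 3 arrays, Eif2s2 (the β subunit) on 1 and Eif2s3y on 0, and none of the 4 annotated genes of eIF2B, which reloads eIF2 with GTP, was detected on any array. Eif1a and Eif5 were detected on 4 arrays each and Eif6, which keeps the ribosomal subunits apart, on 1. Eif1ax, Eif1b, Eif5b, Eif1ad, Eif2d, Eif5a and Eif5a2 were detected on 0. A gene at 0 arrays was below what its probe could show on these arrays, which is not evidence that its mRNA was absent, and 23 of the 54 genes had several probes that often disagreed. Of 11 such genes that were detected, 8 had at least 1 probe that was detected on 0 arrays.

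Other genes of the pathway were also detected in part. Aminoacyl-tRNA synthetase genes, which charge tRNAs, were listed together with Aimp1 and Aimp2, whose products belong to the synthetase complex but are not synthetases. This list gave 6 of 20 on at least 1 array, led by Gars on 7 arrays, where 17.3% of all named genes were detected on at least 1. Aimp1 was detected on 2 arrays and Aimp2 on 0. Termination and recycling factors gave 2 of 6, with Etf1 (the release factor eRF1) on 6 arrays and Hbs1l on 2. Regulators of initiation and elongation gave 5 of 21, with Pabpc1 on 3 arrays, and mitochondrial translation factors gave 3 of 9, with Tufm on 3. Together these 4 lists gave 16 of 56 genes (28.6%). Only 4 of their probes passed the filter for the comparisons described below, and 0 of the 4 had a limma adjusted p under 0.05 in any of them, as did 0 of all 1099 tested probes. On the average array 24.2% ± 15.2 of the elongation factor genes and 11.2% ± 9.96 of the initiation factor genes passed detection (mean ± SD, n = 12), while the cytosolic ribosomal protein genes stood at 54.2% ± 20.6 and all named genes at 3.84% ± 1.96.

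Many mRNAs of the translation machinery begin with a run of pyrimidines, the 5′-terminal oligopyrimidine tract through which mTOR controls their translation. The RefSeq start sites (build GRCm38.p6) were therefore read for the 41 factor genes with an entry, over 30 bases from 15 before to 15 from the start on the strand of the gene. A run of at least 10 C or T bases, on that strand only, was present in 9 of 41 genes (22.0%), against 1689 of 27025 genes with an entry (6.25%). It was present in 3 of 14 factor genes detected on at least 1 array (21.4%) and in 6 of 27 on 0 arrays (22.2%). Among factor genes detected on at least 3 arrays it was present in 3 of 11 (27.3%). The windows below are those of the 3 detected genes with a run, then of Eef1a1 as a gene with a run and 0 arrays, and of Eef1b2 and Eif4ebp2 as detected genes without one. Capitals mark the run.
Eif3f (6 arrays; chr7:108934400-108934429, plus strand): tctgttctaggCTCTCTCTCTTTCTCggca
Eif2s3x (3 arrays; chrX:94212637-94212666, minus strand): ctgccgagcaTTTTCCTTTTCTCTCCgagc
Eif3l (3 arrays; chr15:79075208-79075237, plus strand): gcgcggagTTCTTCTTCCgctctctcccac
Eef1a1 (0 arrays; chr9:78481710-78481739, minus strand): gctggctccgCCCTCTTCCCgagggtgggg
Eef1b2 (6 arrays; chr1:63176816-63176845, plus strand): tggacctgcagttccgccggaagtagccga
Eif4ebp2 (10 arrays; chr10:61452655-61452684, minus strand): ggtatcgcagcgggacgaccgggcgagagc
A run is a description of the letters in this window only, and 13 factor genes had no entry. It could lie anywhere in the window, so it need not be the tract that begins the mRNA. Tracts shorter than 10 bases were not counted, so a gene without a run, such as Eef1b2, may still have a tract. The shares above therefore compare runs of this length and not tracts. In Eef1akmt2, Eif4e and Eif4enif1 the run ended before the start. A factor gene with several starts was counted when any of them had a run, as for Eif4e and Eif4enif1.

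Detection of the factors followed the number of probes detected on the array. Initiation factor genes numbered 4, 11, 11 and 1 on TGF-β2 arrays 1 to 4, 1, 1, 11 and 1 on PDGF-BB arrays 1 to 4, and 1, 5, 8 and 3 on control arrays 1 to 4. Elongation factor genes numbered 1, 3, 6 and 2 with TGF-β2, 1, 1, 5 and 1 with PDGF-BB, and 2, 3, 4 and 3 in control. Both families were thus most often detected on TGF-β2 sample 3, PDGF-BB sample 3 and control sample 3 within their groups, tied with TGF-β2 sample 2 for initiation, and the groups overlapped. The 5 arrays with the most probes detected in all, TGF-β2 2 and 3, PDGF-BB 3 and control 2 and 3, had 10 to 22 factor probes detected each, and the other 7 arrays had 2 to 6. Those 5 arrays held 82 of the 105 factor detections (78.1%) and 64.0% of all detections, and 18 of the 27 factor probes ever detected (66.7%) were detected on them alone, against 1600 of 3336 of all probes (48.0%). The share of factor probes detected was 1.34 to 5.28 times the share of all probes on the same array. The part of the arrays' total detection in the factor counts was not tested further.

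By group, the number of initiation factor genes detected per array averaged 6.75 ± 5.06 with TGF-β2, 3.5 ± 5.0 with PDGF-BB and 4.25 ± 2.99 in control (SD, n = 4 each). Elongation factor genes averaged 3 ± 2.16 with TGF-β2, 2 ± 2 with PDGF-BB and 3 ± 0.816 in control. Without PDGF-BB sample 3 the PDGF-BB means were 1 and 1. The differences between these means were smaller than the largest SD within the groups compared. There were 2 chips, and each carried 2 samples per group. Chip 1 carried samples 1 and 4 of both growth factor groups and control samples 2 and 3, and chip 2 carried the others. On chip 1 the mean number of initiation genes was 2.5 with TGF-β2, 1 with PDGF-BB and 6.5 in control, and on chip 2 it was 11 with TGF-β2, 6 with PDGF-BB and 2 in control. The order of the groups was therefore not the same on the 2 chips.

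**Figure D2:**
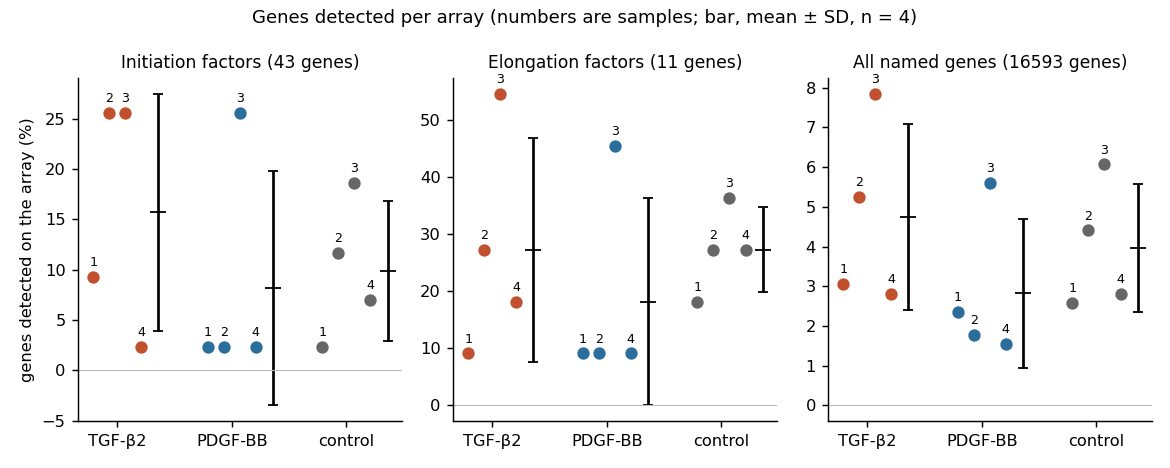
Share of initiation factor genes, elongation factor genes and all named genes (vertical axes, %) detected on each array of the TGF-β2, PDGF-BB and control groups. Numbers are samples, and black bars give the mean ± SD (n = 4). In the PDGF-BB group sample 3 had 11 initiation and 5 elongation genes, against 1 and 1 on each of the other 3 arrays.

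Few factors were on the common list of a group, that is, detected by 1 same probe on all 4 of its arrays. In TGF-β2 exosomes these were Eif4ebp2 and Eef1g, in PDGF-BB exosomes Eef1g alone, and in control exosomes Eif4h, Eef1a2 and Eef1g. Over all probes, 0.697% were on the TGF-β2 list, 0.144% on the PDGF-BB list and 0.358% on the control list. No factor probe was detected on 4 of 4 arrays of one group and 0 of 4 of another.

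The levels of the most widely detected members are given as normalized log2 intensities, which compare 1 probe across arrays and not 1 gene with another. The lowest detected value was 4.98 to 5.72 by array, and below this range differences are compressed. Eef1g, the γ subunit of eEF1B, had 9.58, 9.66, 8.70 and 9.83 in TGF-β2 samples 1 to 4, 7.55, 9.39, 9.21 and 9.27 in PDGF-BB samples 1 to 4, and 9.94, 9.77, 8.51 and 9.39 in control samples 1 to 4. All 12 values were detected, the groups overlapped, and PDGF-BB sample 1 alone lay far below the rest. Before normalization the intensities were 481 to 1306 with TGF-β2, 104 to 1437 with PDGF-BB and 174 to 1675 in control. PDGF-BB sample 1 was lowest there too (104, bead standard error 25.5), but control sample 1, highest after normalization, had only 174 before it, so the order of the arrays depended on the normalization. Over 12 arrays Eef1g averaged 9.23 ± 0.68 (SD).

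Eef1b2, which encodes the nucleotide exchange subunit, had 3 probes that all passed the filter and are numbered by mean level. The first had 5.18, 5.87, 6.34 and 5.92 with TGF-β2, 4.73, 5.04, 6.93 and 4.81 with PDGF-BB, and 4.70, 5.58, 6.0 and 4.82 in control. It was detected on 3 TGF-β2, 1 PDGF-BB and 2 control arrays, and PDGF-BB sample 3 held its highest value. The second and the third probes were detected on 5 and 3 arrays, also with their highest values in PDGF-BB sample 3 (7.2 and 5.63).

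The first Eef1a2 probe was the factor probe with the clearest separation. It had 4.85, 5.11, 5.15 and 4.96 with TGF-β2, 5.10, 4.81, 6.05 and 5.27 with PDGF-BB, and 5.44, 6.85, 5.71 and 5.49 in control. All 4 control values were detected and lay above all 4 TGF-β2 values, of which 2 were detected, while the PDGF-BB values, of which 1 was detected, overlapped both. The second Eef1a2 probe was detected on 3 arrays and did not separate the groups, with means of 4.78 ± 0.21 with TGF-β2, 4.86 ± 0.46 with PDGF-BB and 4.82 ± 0.22 in control (SD, n = 4 each), and the third probe was detected on 0.

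Eif4ebp2, a repressor of cap-dependent initiation, had 7.83, 7.76, 9.08 and 7.42 with TGF-β2, 4.63, 7.73, 6.75 and 8.10 with PDGF-BB, and 4.87, 7.44, 9.58 and 7.90 in control. It was detected on every array but PDGF-BB sample 1 and control sample 1, which were also the 2 arrays that correlated least with the others. Eif4h had 6.31, 5.75, 5.75 and 5.04 with TGF-β2, 5.63, 4.84, 7.0 and 4.88 with PDGF-BB, and 5.64, 6.80, 6.51 and 5.39 in control. Its control arrays were all detected, as were 3 TGF-β2 and 2 PDGF-BB arrays, and the groups overlapped.

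Eif3f, the f subunit of eIF3, had 4.71, 5.70, 5.63 and 4.98 with TGF-β2, 4.60, 4.70, 6.40 and 4.74 with PDGF-BB, and 4.76, 6.18, 5.11 and 5.67 in control. It was detected on 2 TGF-β2 arrays, 1 PDGF-BB array and 3 control arrays. Eif1a, an eIF1A gene, showed another pattern, with 6.26, 5.14, 5.24 and 4.96 with TGF-β2, 4.88, 4.71, 4.96 and 5.05 with PDGF-BB, and 4.88, 4.93, 5.33 and 4.86 in control. TGF-β2 sample 1 held its highest value, and it was detected on 3 TGF-β2 arrays, 0 PDGF-BB arrays and 1 control array. For this probe no difference from PDGF-BB is given, because the mean in TGF-β2 exosomes was under the detection limit set by the PDGF-BB arrays.

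**Figure D3:**
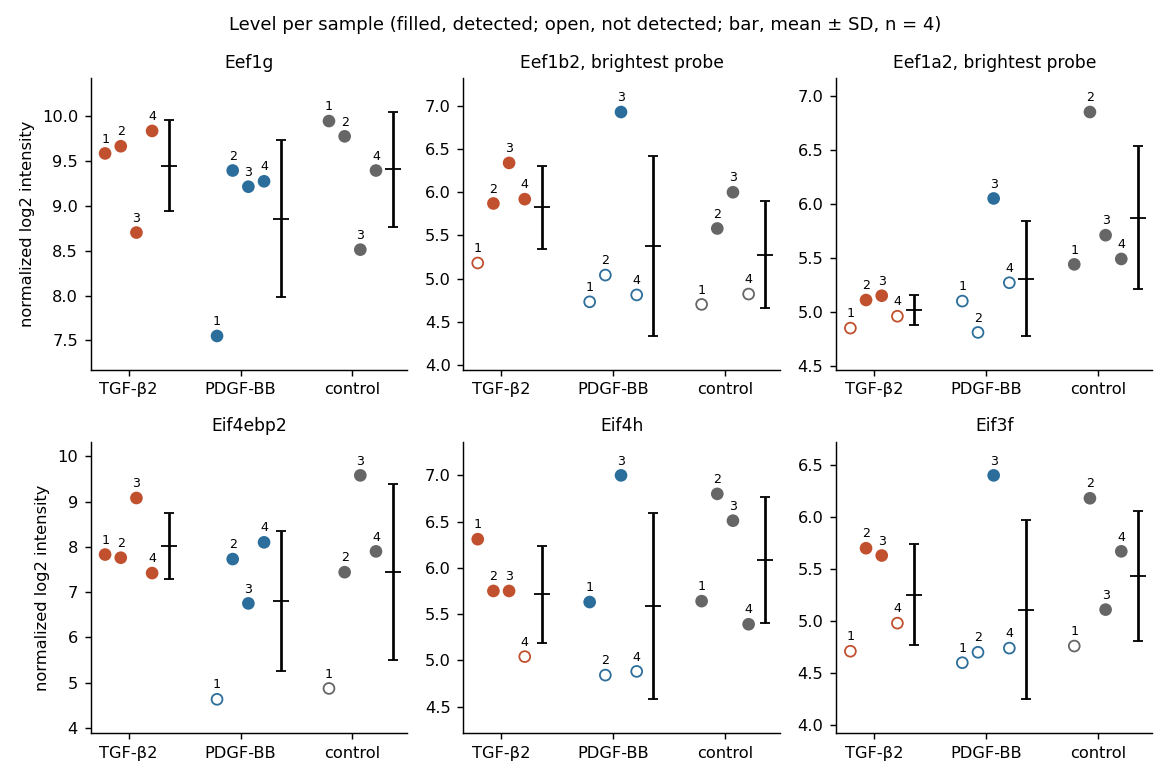
Normalized log2 intensity (vertical axes) of 6 factor probes in each sample of the TGF-β2, PDGF-BB and control groups. Filled points were detected and open points were not, numbers are samples, and black bars give the mean ± SD (n = 4). Eef1a2 is the panel in which the TGF-β2 values (4.85 to 5.15) lie below all control values (5.44 to 6.85).

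The question behind the comparisons was whether growth factor treatment of the cells altered the mRNA content of their exosomes. Of the 91 factor probes, 18 probes of 15 genes passed the filter (detected on at least 3 of 12 arrays), among 1099 probes in all. They were 11 initiation and 7 elongation probes. In limma with Benjamini-Hochberg adjustment, 0 of the 18 had an adjusted p under 0.05 with TGF-β2 against control, with PDGF-BB against control, or with TGF-β2 against PDGF-BB. The background was 0.00% of all tested probes in each comparison. At an unadjusted p under 0.05 there was 1 factor probe in the first comparison and 0 in the others, against 0.728%, 4.37% and 4.73% of all tested probes. The comparisons share samples and are not independent of each other. Where a probe was detected on 0 arrays of one of the groups compared, the means are given without a difference, which applied to 4, 6 and 2 of the 18 probes in the same order.

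With TGF-β2 against control, the initiation probes had a median log2 difference of 0.12 (7 positive, 4 negative) and the elongation probes of 0.03 (4 positive, 3 negative), beside 0.05 over all tested probes (58.1% positive). Over the probes detected in both groups the medians were 0.11 for 8 initiation and 0.0019 for 6 elongation probes, beside 0.03 for all. Eef1a2 by its first probe was lower with TGF-β2, with a log2 difference of −0.86 ± 0.34 (SE; 95% interval −1.60 to −0.11). Its unadjusted p was 0.028 and its limma adjusted p was 1, so it did not pass. It was the single factor probe of 18 whose groups did not overlap, and 7 of all 1099 probes (0.637%) had this property. In the comparisons of PDGF-BB with control and of TGF-β2 with PDGF-BB, 0 of the 18 were without overlap, where 1.73% and 1.91% of all tested probes were. The sign was negative on both chips (−1.38 on chip 1 and −0.34 on chip 2), but the second Eef1a2 probe differed by −0.04 ± 0.24. Without control sample 2, which held the highest value, the first probe stood at −0.53.

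The next smallest p-values in the same comparison went to small or variable differences. Among values above 0 were Eif1a at 0.40 ± 0.27, Eif5 at 0.31 ± 0.25 and the first Eef1b2 probe at 0.55 ± 0.49. Among values below 0 were Eif4h at −0.37 ± 0.50 and Eif4a2 at −0.12 ± 0.20, and Eif4a1, the close relative of Eif4a2, stood at 0.25 ± 0.23. All had a limma adjusted p of 1. Without TGF-β2 sample 1, Eif1a stood at 0.11 and Eif4a1 at 0.04, without TGF-β2 sample 3 Eif5 stood at 0.16, and without control sample 2 Eif4h stood at −0.13. The widest 95% interval was that of Eif4ebp2, −1.49 to 2.65, so that these 4 samples a group leave large changes of this transcript in either direction possible.

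With PDGF-BB against control, the initiation probes had a median difference of −0.10 (5 positive, 6 negative) and the elongation probes of 0.04 (4 positive, 3 negative), beside −0.06 over all tested probes (41.4% positive). Over the probes detected in both groups the medians were −0.27 for 6 initiation and −0.02 for 6 elongation probes, beside −0.05 for all. The first Eef1a2 probe stood at −0.57 ± 0.34 (limma adjusted p = 0.851) and Eef1g at −0.55 ± 0.45 (limma adjusted p = 0.900). Both rested in part on single arrays: Eef1g stood at −0.11 without PDGF-BB sample 1 and at −1.52 with arrays scaled to a common median, and the first Eef1a2 probe at −0.24 without control sample 2. Eif4a2 followed at −0.21 ± 0.20. Above 0, the second Eef1b2 probe stood at 0.27 ± 0.58, and at −0.35 without PDGF-BB sample 3, so that its sign rested on this sample. Eif3l and the third Eef1b2 probe were detected on 1 PDGF-BB array and 0 control arrays, with means of 4.95 and 5.0 with PDGF-BB and 4.83 and 4.89 in control. Eif4a1 was detected on 0 PDGF-BB arrays and 1 control array, with means of 5.0 with PDGF-BB and 4.94 in control.

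With TGF-β2 against PDGF-BB, the initiation probes had a median difference of 0.14 (10 positive, 1 negative) and the elongation probes of 0.03 (4 positive, 3 negative). Over all tested probes the median was also 0.14, and 66.2% were positive. Over the probes detected in both groups, 8 of 9 initiation probes were positive, against 62.4% of all, with medians of 0.12 for initiation and 0.10 for all. Eif1a averaged 5.40 ± 0.58 with TGF-β2 and 4.90 ± 0.14 with PDGF-BB, where it was detected on 0 arrays (SD, n = 4 each). Eef1g stood at 0.59 ± 0.45 and Eif4ebp2 at 1.22 ± 0.95 (limma adjusted p = 0.830 for both), and the first Eef1a2 probe at −0.29 ± 0.34. Without PDGF-BB sample 1, Eef1g stood at 0.15 and Eif4ebp2 at 0.50, and without PDGF-BB sample 3 the first Eef1a2 probe stood at −0.04. The Eef1g difference was 1.30 on chip 1, which holds PDGF-BB sample 1, and −0.12 on chip 2.

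**Figure D4:**
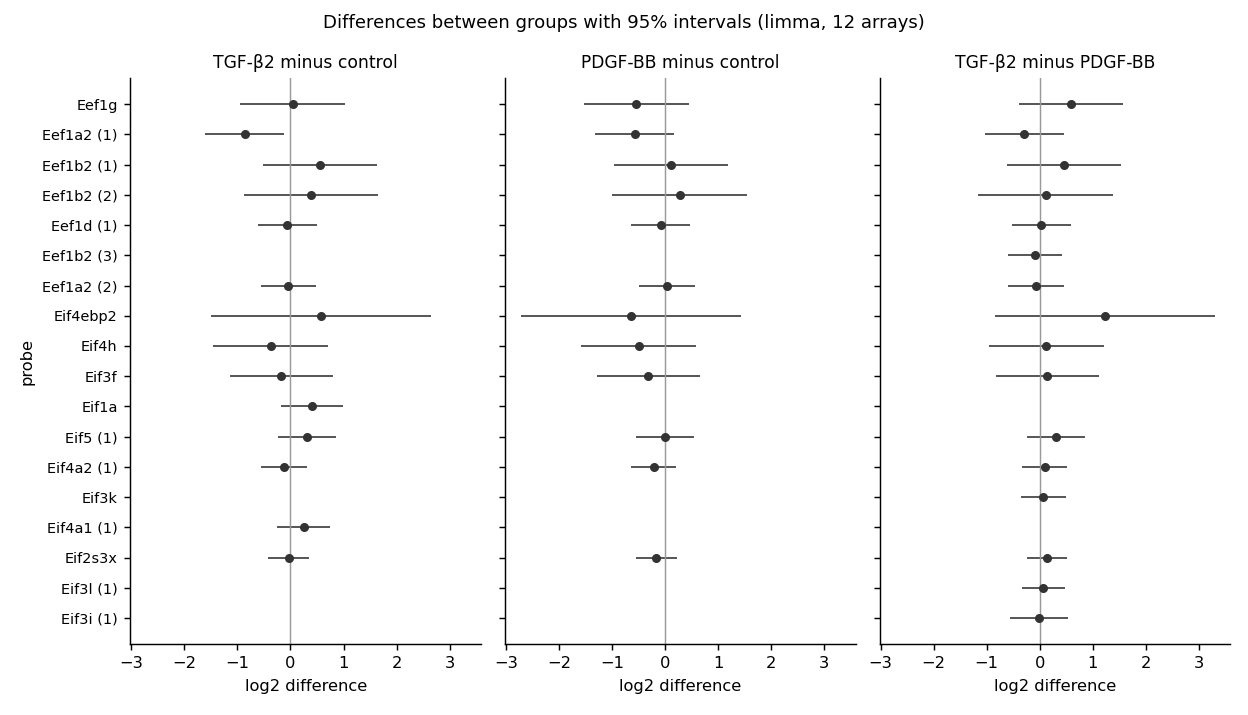
Log2 difference (horizontal axes) of the 18 tested factor probes for TGF-β2 minus control, PDGF-BB minus control and TGF-β2 minus PDGF-BB, elongation factors above initiation factors. Points are limma estimates and lines are 95% intervals, not adjusted for the number of probes, and a probe detected on 0 arrays of either group is left blank. The line of Eef1a2 (1) in the left panel, −1.60 to −0.11, is the only one that leaves out 0.

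The 2 chips gave opposite signs for most factors when each growth factor was set against control. With TGF-β2 against control, 3 of 18 factor probes were positive on chip 1 and 15 on chip 2, and 4 of 18 (22.2%) had the same sign on both. Over all tested probes 40.5% were positive on chip 1 and 65.9% on chip 2, and 31.4% had the same sign, so the pattern was not particular to the factors. The median factor difference was −0.22 on chip 1 and 0.27 on chip 2. With PDGF-BB against control, 4 of 18 were positive on chip 1 and 14 on chip 2, with 8 of 18 (44.4%) of the same sign, against 39.9% of all probes. Eif4ebp2 moved most between chips, with −0.88 and 2.03 for TGF-β2 against control and −2.15 and 0.86 for PDGF-BB against control on chips 1 and 2. Control sample 1 and PDGF-BB sample 1, the 2 arrays that did not detect it, lie on chips 2 and 1. With TGF-β2 against PDGF-BB, 12 of 18 factor probes (66.7%) had the same sign on both chips, against 63.6% of all probes, and Eif4ebp2 stood at 1.27 and 1.18. Each chip held 2 arrays of a group, and the growth factor arrays on a chip carried other sample numbers than its control arrays. In the comparisons with control, the chip and the sample numbers set against each other therefore changed together. An offset shared by all arrays of a chip drops out of a difference within that chip, but one shared by a sample number does not. The TGF-β2 and PDGF-BB arrays on a chip carried the same sample numbers. Which part of the opposite signs came from chip, from sample number or from single samples was not tested.

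**Figure D5:**
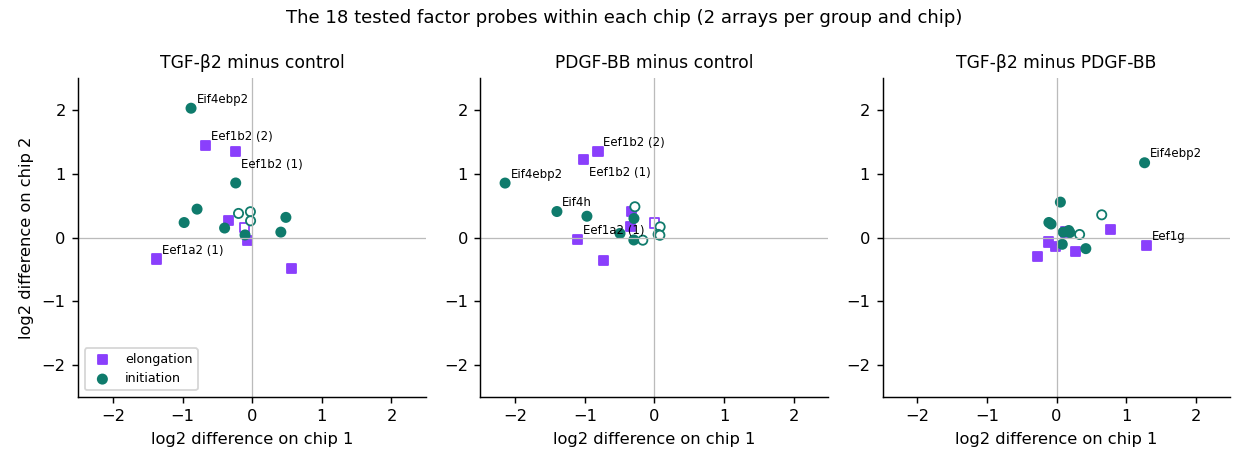
Log2 difference of the 18 tested factor probes on chip 1 (horizontal axes) and chip 2 (vertical axes), with squares for elongation and circles for initiation factors, open where the probe was detected on 0 arrays of either group. Probes past 1 on either chip, in either direction, are named. In the left panel (TGF-β2 minus control) 14 of the 18 points fall where the chips have opposite signs, with Eif4ebp2 at −0.88 and 2.03.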

How the data were processed

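Exosomal RNA of HL-1 cells was measured on 12 arrays (4 samples in each of 3 groups, by the labels). The authors amplified and labelled RNA, hybridized it to BeadChips and exported values with Illumina software (GenomeStudio per the labels). The deposited scanner table holds background-subtracted signal intensities that were not normalized, bead standard errors and a detection p-value per probe. A second deposited table holds the authors' cubic-spline normalized intensities and served as an alternative. Here intensities were corrected with the normexp model from detection p-values, quantile normalized (offset 16) and converted to log2 with limma 3.58.1 in R 4.3.3. Negative values and levels near background are compressed by this step.

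Probes were named from the platform annotation: 23977 of 25696 had 1 gene symbol and 1719 none, and all 91 factor probes matched a RefSeq Entrez ID. Probes detected (p under 0.01) on at least 3 of 12 arrays were tested with limma on group means over all 12 arrays, two-sided, with Benjamini-Hochberg adjustment over 1099 probes. The test was also run on simulated data with independent noise for each probe and array. Such data lack deviations shared by the probes of an array, so this run cannot show how the test behaves on the real arrays. Named were factor probes detected on all 4 arrays of a group or on at least 6 arrays, the 3 with the smallest p in each direction per comparison, and the paralogues of eEF1A, eIF4A, eIF4G, eIF5A and eIF4E with its binding proteins. Other genes in the text were singled out after their values were seen. The members and lists were chosen with earlier results of these data known. The main fit did not pair samples by replicate number. Deviations from the group means correlated between same-numbered samples of 2 groups at r = −0.225 to 0.429 over tested probes. Number 3 gave 0.366 to 0.429 and number 1 gave 0.232 to 0.394, so some shared deviation by number remains possible. The number of arrays and the low signal limit the precision. Alternatives were other scalings, filters and detection thresholds, chip or replicate blocks, single chips, array weights and leaving out each array. Medians over probes detected in both groups were added after seeing the data.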

Additional observations from a re-analysis of the deposited data

Results flagged for a closer look

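The counts of detected factor genes and the levels of the tested factor probes were looked at by group, in 60 groups of 4 samples. In 11 of them 1 sample lay far from the other 3. About 3 would do so by chance if values were normally distributed, which small counts and values compressed near background are not. Nearly all of the 11 lay in the PDGF-BB group, and the values of one sample are not independent of each other. PDGF-BB sample 3 detected 11 initiation factor genes and 5 elongation factor genes, against 1 and 1 on each of the other 3 arrays. The same sample was highest for the first Eef1b2 probe (6.93, next 5.04), the second (7.2, next 4.83) and the third (5.63, next 4.80). It was also highest for Eif3f (6.40, next 4.74), Eef1d (5.76, next 4.81), Eif3i (5.69, next 4.72) and Eif4a2 (5.29, next 4.71), all as log2 intensities. It had 1070 of all probes detected, against 294 to 421 on the other PDGF-BB arrays, and the part of this in the factor levels was not tested. PDGF-BB sample 1 was lowest for Eef1g (7.55, next 9.21). In control exosomes, Eif1a was highest in sample 3 (5.33, next 4.93).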

How the results depend on the processing

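The number of factor probes called was 0 in every comparison under every setting, and the lowest adjusted p of the 24 named differences under any setting was 0.141. Of these 24, 10 kept their sign under all alternatives. The replicate block and the chip block each left all 24 signs and 0 calls. The filter on at least 6 arrays left 8 of the 24 in the fit. The median of all tested probes moved with the scaling: for TGF-β2 against control it was 0.05, and 0.16 after flooring, 0.06 after median scaling and 0.14 with the deposited spline values. For PDGF-BB against control it was −0.06, −0.20, −0.17 and −0.18 in the same order, and for TGF-β2 against PDGF-BB 0.14, 0.37, 0.21 and 0.34.

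Signs turned as follows, and the cause was not tested. For Eif4a1 in comparisons with PDGF-BB and the third Eef1b2 probe in comparisons with control, where 1 group had 0 detected arrays, the values are fitted at background and are no measure of size. For TGF-β2 against control on chip 1, Eif5 was −0.24 and the first Eef1b2 probe −0.24. On chip 2, Eif4h was 0.24, Eif4a2 0.15 and the second Eef1a2 probe 0.27 (0.0023 with spline values). For PDGF-BB against control on chip 1, the second Eef1b2 probe was −0.81 and the second Eef1a2 probe −0.33. With array weights they were −0.014 and −0.076, with flooring or spline values Eef1a2 was −0.14 or −0.055, with median scaling Eif4a1 was −0.0085, and on chip 2 Eif4a2 was 0.065. For TGF-β2 against PDGF-BB, Eef1g was −0.12 on chip 2 and the third Eef1b2 probe 0.12 with array weights. The second Eef1a2 probe was 0.10 with flooring, 0.057 with spline values and 0.072 with array weights.

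Leaving out each array turned 8 differences. The second Eef1a2 probe ranged from −0.13 to 0.066 for TGF-β2 against control, from −0.19 to 0.14 for PDGF-BB against control and from −0.18 to 0.15 for TGF-β2 against PDGF-BB. The second Eef1b2 probe ranged from −0.35 to 0.55 for PDGF-BB against control. The third ranged from −0.092 to 0.19 for PDGF-BB against control and from −0.18 to 0.12 for TGF-β2 against PDGF-BB. Eif4a1 ranged from −0.019 to 0.13 for PDGF-BB against control and from −0.022 to 0.30 for TGF-β2 against PDGF-BB. Initiation genes on all arrays of a group ranged from 1 to 3 with TGF-β2 (3 without sample 4), 0 to 1 with PDGF-BB (1 without sample 1) and 1 to 3 in control (3 without sample 1). Elongation genes on all TGF-β2 arrays ranged from 1 to 2 (2 without sample 1). With detection at p under 0.05 they were 3 initiation and 2 elongation genes with TGF-β2, and the control arrays averaged 8.25 initiation and 4.25 elongation genes. Leaving out each array moved the PDGF-BB mean of initiation genes over 1 to 4.33 and of elongation genes over 1 to 2.33.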
